A study of Callithrix jacchus with 71 samples.

Results

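The genes described here are 9 that write, keep or remove methyl groups on DNA: DNMT1, UHRF1, DNMT3A, DNMT3B, DNMT3L, TET1, TET2, TET3 and TDG. They were chosen by name, and all 9 have a row among the 23561 named genes of a table of single marmoset cells.

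In mammals DNA is methylated mainly at cytosines that precede a guanine (CpG). DNMT1 copies the pattern onto the new strand at replication, and UHRF1 brings it to half-methylated sites. DNMT3A and DNMT3B set new methyl groups, and DNMT3L, which has no catalytic activity of its own, binds and stimulates them. The TET enzymes oxidise the methyl group, and TDG cuts out the more oxidised bases so that repair can restore an unmodified cytosine. DNMT3B and DNMT3L are typical of early embryonic and pluripotent cells, DNMT3A is also active in neural progenitors, and TET1 is known for its high level in pluripotent cells.

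The study reprogrammed marmoset (Callithrix jacchus) fibroblasts to induced pluripotent stem cells (iPSCs) through induced neural stem cell-like cells (iNSLCs). Single cells were sorted into a plate and read by RamDA-seq, a method that copies total RNA along the whole transcript. The iNSLCs are 65 cells of E01F A2. They are set beside 4 No.40 embryonic stem cells (ESCs), a single iPSC of the clone E01F A-2-2 and a single E01F fibroblast. E01F fibroblasts came from the dorsal skin of a marmoset embryo, and the iNSLCs were made from them with the EP-A episomal vectors, which carry LIN28, KLF4, L-MYC, SOX2 and OCT4 of human origin, EGFP and a dominant-negative form of mouse Trp53. According to the study's text the iNSLCs were at an early passage (P1), and the iPSC clone was derived from the iNSLCs by a change to ESC medium. The study grew iNSLCs in another medium (NSM), which its authors had reported for putative naive-state cells. Medium and state therefore cannot be told apart between the iNSLCs and the ESCs or the iPSC. None of the 9 genes is carried by the vectors. The ESCs had another origin and received no vector. Each group is 1 line, the ESCs and the iPSC are called PSC cells where they are pooled, and cells are named by their number in the labels.

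The iNSLCs had 82268 to 695241 reads on named genes, with a median of 268128. The PSC cells had 134328 to 1003718 reads and the fibroblast had 1294430. ESC cell 11 was the shallowest PSC cell and had 7126 genes with a read, where the other PSC cells had 13669 to 15521. It had no read of DNMT1, TET2, TET3 or TDG, so results are given with and without it where it weighs on them. The labels fit the markers in the main. All 7 pluripotency markers were higher in PSC cells, and of 7 neural stem cell markers 6 were higher in iNSLCs, with PAX6 and HES5 at 0 reads in every PSC cell. The summed level of 7 fibroblast markers was 26660 normalized counts in the fibroblast and 0 to 1073 in iNSLCs. In iNSLCs THY1 had reads in 52 of the 65 cells, COL1A2 in 45, PDGFRB in 27, COL1A1 in 16, COL3A1 in 7 and DCN and LUM in 1 each. Against the label, COL1A1 and PDGFRB had reads in all 5 PSC cells, with means of 134 and 26.7 normalized counts, and so did the mesoderm gene TBXT, with a mean of 42.6.

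All levels are the normalized counts that the authors deposited, in which the reads of a cell are multiplied by a factor of that cell. Depending on the cell, a single read was worth 0.405 to 2.84 normalized counts. Ratios are log2 ratios of the mean over cells after a pseudocount of 1, and a gene was counted as higher or lower at a ratio of at least 1 or at most -1. Genes whose mean over the 70 PSC cells and iNSLCs reached 1 were compared. Each group has 1 source in the labels and cells of 1 culture are not replicates. No test between the groups was therefore possible, and the values describe these cells. Confidence intervals (CI, at 95%) take in the error of counting alone, as no molecular tags were used. Levels of different genes are not compared, because transcript lengths were not used.

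DNMT3B separated the pluripotent cells from the iNSLCs most clearly, and DNMT3L, DNMT3A, UHRF1 and TET1 were also higher in PSC cells. Of the 9 genes, 5 were higher in PSC cells and none was lower, where 24.4% of the 14045 genes compared were higher and 17.4% were lower. The other 4 genes, DNMT1, TET2, TET3 and TDG, had ratios between -0.65 and -0.34. The median ratio of the 9 genes was 1.35 and that of all genes was 0.16. All 9 genes passed the minimum mean, DNMT3L only through the PSC cells. In 4 of the 9 genes (UHRF1, DNMT3A, DNMT3B and DNMT3L) every PSC cell lay above the iNSLC median, as in 16.9% of all genes. For DNMT3L that median was 0, so a single read was enough, and the iPSC had 1 read. In DNMT3B alone every PSC cell lay above every iNSLC, as in 1.23% of all genes. No member had every PSC cell below the iNSLC median, where 9.63% of all genes did. When every cell was scaled to the same total the median ratio of all genes moved from 0.16 to -0.10, and the ratios of the 9 genes moved down by a similar amount, to 1.02 for TET1 and 4.47 for DNMT3B.

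**Figure D1:**
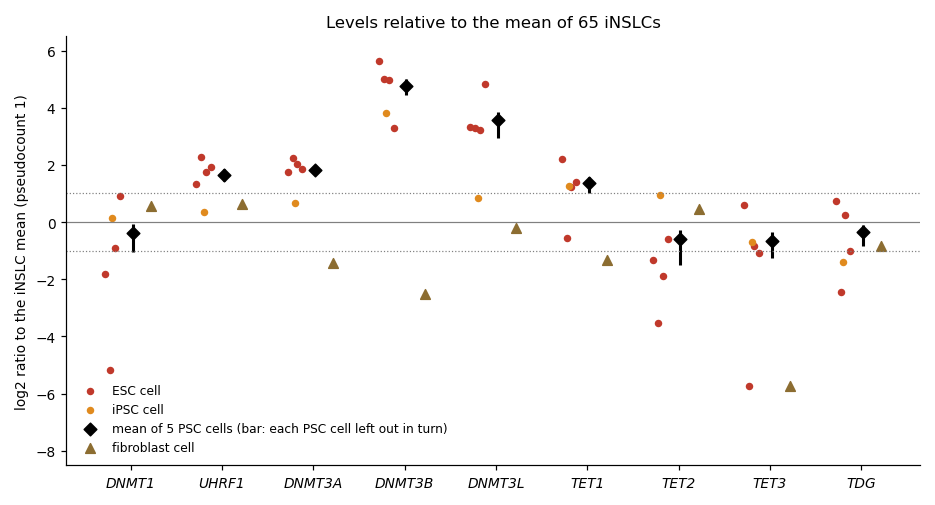
Log2 ratio to the mean of 65 iNSLCs (y axis, pseudocount 1) for each gene (x axis), with 1 point per ESC, iPSC and fibroblast cell and a diamond for the mean of 5 PSC cells, whose bar spans the values when single PSC cells are omitted. The DNMT3B diamond lies at 4.77 with a bar of 4.44 to 4.99, and those of DNMT1, TET2, TET3 and TDG lie below 0.

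Maintenance of methylation rests on DNMT1 and UHRF1, and these 2 genes did not move together between the states. DNMT1 was at 9.31, 0, 18.4 and 66.6 normalized counts in ESC cells 10, 11, 12 and 14 and at 38.5 in the iPSC. In iNSLCs it ranged from 0 to 123 with a median of 26.6, and its mean was 35.2 ± 30.2 (SD, n = 65 cells). Every PSC cell lay within the iNSLC range. The PSC to iNSLC log2 ratio was -0.39, and it was -0.08 without ESC cell 11 and -1.04 without ESC cell 14, so a single cell decided its size.

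UHRF1 was at 169, 329, 228 and 253 normalized counts in the ESCs, in the same order, and at 84.4 in the iPSC. The iNSLCs had 2.84 to 161 with a median of 65.6. All 4 ESCs lay above the highest iNSLC, whereas the iPSC lay inside the iNSLC range and was exceeded or equalled by 19 of the 65 cells. The log2 ratio was 1.66 (a 3.19-fold mean), with 12.1% of all genes higher than that, and it stayed between 1.45 and 1.86 with each PSC cell left out. UHRF1 had reads in every one of the 65 iNSLCs and DNMT1 in 62, a share of 95.4% (CI 87.1% to 99.0%). Genes of S phase moved with UHRF1 in this comparison: 16 of the 21 compared were higher in PSC cells and 1 was lower. Their part in the UHRF1 difference was not tested.

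Of the 9 genes DNMT3B and its cofactor DNMT3L had the largest log2 ratios of PSC cells to iNSLCs, except that with a pseudocount of 10 DNMT3L lay below DNMT3A and UHRF1. DNMT3B was at 1201, 771, 755 and 235 normalized counts in ESC cells 10, 11, 12 and 14 and at 338 in the iPSC. In iNSLCs it ranged from 0 to 77.8, with a median of 22.6 and a mean of 23.2 ± 18.4 (SD, n = 65 cells). The groups did not overlap, and the lowest PSC cell, ESC cell 14, lay well above the highest iNSLC, cell 45. The mean was 28.5-fold higher in PSC cells, a log2 ratio of 4.77 that 0.769% of all genes exceeded. With each PSC cell left out it was 4.44 to 4.99. Although low, DNMT3B was not absent from iNSLCs: 59 of 65 cells had reads, or 90.8% (CI 81.0% to 96.5%), 1628 reads in all.

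DNMT3A was at 186, 260, 224 and 201 normalized counts in the ESCs and at 86.6 in the iPSC. The iNSLCs had 2.31 to 145 with a median of 50.6, and all 65 had reads. All 4 ESCs lay above every iNSLC, and the iPSC lay among the higher iNSLCs, with 12 of 65 at or above it. The log2 ratio was 1.81 (3.54-fold), and 1.67 to 1.99 with each PSC cell left out. The difference in DNMT3A was thus smaller than that in DNMT3B in these cells, on the same scale.

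DNMT3L, the cofactor, was nearly silent outside the ESCs. It was at 10.5, 10.2, 9.72 and 31.7 normalized counts in ESC cells 10, 11, 12 and 14. The iPSC had a single read, at 1.07, and the fibroblast had none. Of the 65 iNSLCs 61 had no read, and the reads of the other 4 were 3 each in cells 48, 74 and 76 and 1 in cell 96. That is 6.15% of iNSLCs (CI 1.70% to 15%) and 10 reads in all (CI 4.8 to 18.4), at 1.35 to 3.76 normalized counts in those cells. No iNSLC reached an ESC, but all 4 of those cells lay above the iPSC. The mean was 82.7-fold higher in PSC cells. On the log2 scale with the pseudocount the ratio was 3.56, or 2.95 without ESC cell 14, and it shrank to 1.16 with a pseudocount of 10 because the levels are low. Only the 4 iNSLCs with DNMT3L reads could have reads of all 9 genes, and cells 48, 76 and 96 did.

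**Figure D2:**
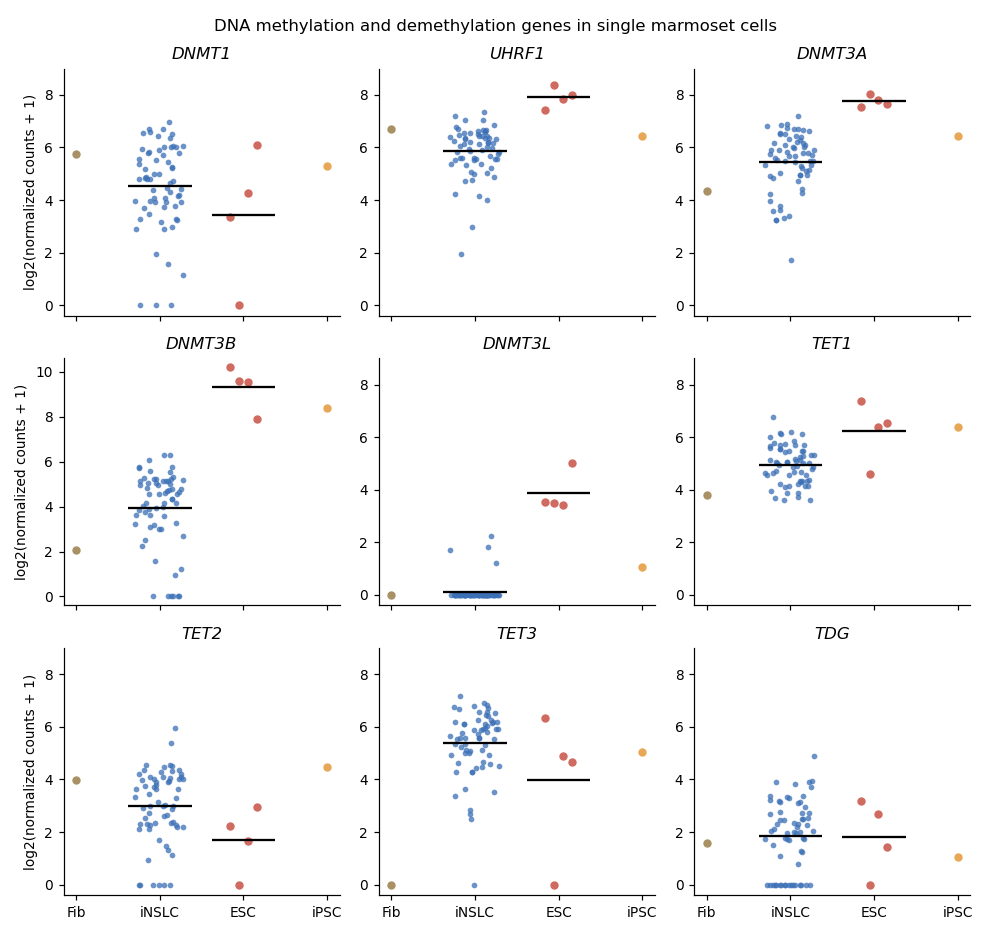
Log2 of normalized counts plus 1 (y axis, a longer one for DNMT3B) in the fibroblast, 65 iNSLCs, 4 ESCs and 1 iPSC (x axis), with 1 panel per gene, 1 point per cell and a line at the mean of the log2 values for iNSLCs and ESCs. DNMT3B is the panel in which no iNSLC reaches a PSC cell, and TET3 and DNMT3L lie at 0 in the fibroblast.

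Among the TET genes the order between the states depended on the gene. TET1 was at 163, 23.0, 82.1 and 92.5 normalized counts in the ESCs and at 83.4 in the iPSC. The iNSLCs had 11.1 to 108 with a median of 31.2, and none was without reads. The groups overlapped: 1 PSC cell lay above every iNSLC, while ESC cell 11 lay below the iNSLC median with 9 reads, and 44 iNSLCs were at or above it. The other 3 ESCs and the iPSC each lay above at least 64 of the 65 iNSLCs. The log2 ratio was 1.35, or 1.59 without ESC cell 11 and 1.02 without ESC cell 10. It was 0.75 when cells were thinned to equal reads, which is short of the fold.

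TET3 was at 80.2, 0, 28.6 and 24.2 normalized counts in the ESCs and at 32.1 in the iPSC. The iNSLCs ranged from 0 to 142 with a median of 47.3, and 64 of 65 had reads. Apart from ESC cell 10, every PSC cell lay below the iNSLC median, but all lay within the iNSLC range. The log2 ratio was -0.65, and it moved from -0.34 without ESC cell 11 to -1.27 without ESC cell 10. TET3 thus counted as lower in PSC cells only without cell 10.

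TET2 was at 3.64, 0, 2.16 and 6.66 normalized counts in the ESCs and at 21.4 in the iPSC. The iNSLCs ranged from 0 to 61.9 with a median of 7.78, and 59 of 65 had reads. All 4 ESCs lay below the iNSLC median and the iPSC lay above 59 of the 65 iNSLCs, so the 2 kinds of PSC cell stood on opposite sides. The log2 ratio was -0.58, and it was -1.49 over the ESCs alone. The contrast rests on 21 reads in the ESCs and 20 in the iPSC.

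TDG was the member closest to its detection limit next to DNMT3L. It was at 8.10, 0, 5.40 and 1.67 normalized counts in the ESCs and at 1.07, a single read, in the iPSC. In iNSLCs it ranged from 0 to 28.6 with a median of 3.09, and 48 of 65 cells had reads, or 73.8% (CI 61.5% to 84.0%). All PSC cells lay within that range. The log2 ratio of -0.34 was -0.09 without ESC cell 11 and -0.83 without ESC cell 10, and a difference was not detectable at this depth.

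The iPSC cell thus differed from the ESC cells in part of the machinery. It was below all 4 ESCs in UHRF1, DNMT3A and DNMT3L and above all 4 in TET2, and it lay within their range in DNMT1, DNMT3B, TET1, TET3 and TDG. As there was 1 iPSC, these values cannot be told apart from differences between single cells.

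The fibroblast, the state from which the iNSLCs were made, was low in reads of the de novo enzyme genes and had no read of TET3. Of the 9 genes, 4 were lower in the fibroblast than in iNSLCs and none was higher, where 26.1% of the 15181 genes compared were lower and 26.5% were higher. Here a mean of 1 in the fibroblast or in iNSLCs was required, which DNMT3L did not reach. The number lower was 3 with a pseudocount of 10, where TET1 was at -0.95, and 5 after scaling or thinning, where TDG was at -1.32 and -2.39. The median over the 9 genes was -0.83 and that over all genes was 0.08. TET3 had 0 reads in the fibroblast, although this was the deepest cell, and 3 reads there would be 1.21 normalized counts. Against that value the TET3 mean of iNSLCs was at least 43.2-fold higher, a bound that takes in read counting in this 1 cell alone. The log2 ratio was -5.74, or -2.64 with a pseudocount of 10. Of the 65 iNSLCs 64 lay above the fibroblast. DNMT3B had 8 reads (CI 3.45 to 15.8) at 3.24 normalized counts, a log2 ratio to iNSLCs of -2.51, and 56 of 65 iNSLCs were higher. DNMT3A at 19.4 and TET1 at 12.9 had ratios of -1.43 and -1.34, with 54 and 61 iNSLCs above the fibroblast.

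The maintenance genes did not share that pattern. DNMT1 at 52.6 and UHRF1 at 103 normalized counts were within the iNSLC range and above 47 and 58 of the 65 iNSLCs. Their ratios of 0.57 and 0.62 turned to -0.20 and -0.14 when every cell was scaled to the same total, and that of TET2, at 15.0 normalized counts, went from 0.46 to -0.31. No direction is therefore given for these 3 genes. TDG at 2.02 had a ratio of -0.83. From the fibroblast over iNSLCs to PSC cells the levels of DNMT3A, DNMT3B and TET1 were ordered upward, with the fibroblast inside the iNSLC range in each and the PSC cells outside it only in DNMT3B. A single fibroblast gives no spread for its group.

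The balance of transcripts within a cell can be read from the share of a family's reads that fall on 1 member. It does not show enzyme activity, as only RNA was measured. Such a share does not depend on the factor of the cell. Transcript length biases it, so it is compared between states only. That comparison takes the lengths as equal between the states, and isoforms and unspliced RNA were not measured. DNMT3B took 31.7% of the reads of DNMT3A and DNMT3B in iNSLCs (CI 30.4% to 33.0%, 5139 reads), 80.2% in PSC cells (CI 79.3% to 81.2%, 6564 reads) and 14.3% in the fibroblast (CI 6.38% to 26.2%, 56 reads). The share was 86.6%, 74.8%, 77.2% and 53.9% in the ESCs and 79.6% in the iPSC. ESC cell 10 held 3427 of the 6564 PSC reads, and the mean of the 5 PSC shares was 74.4%. The intervals take in read counting in the pool and not the spread between cells. The DNMT3B share exceeded 50% in all 5 PSC cells and in 11 of 65 iNSLCs. The iPSC was therefore like the ESCs in this balance although its levels of both genes were low among PSC cells. Single iNSLCs ranged from 0 to 84.1% with a median of 30.5%, some of them on few reads, the fewest being 4.

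DNMT1 took 30.4% of the reads of the 3 catalytic methyltransferase genes in iNSLCs, 2.57% in PSC cells and 69.9% in the fibroblast (CI 62.8% to 76.4%). In the ESCs the share was 0.667%, 0%, 1.84% and 13.3%, and it was 8.31% in the iPSC. In single iNSLCs it ran from 0 to 78.2% with a median of 28.4%, so some iNSLCs lay near the fibroblast and others among the PSC cells. Since the level of DNMT1 overlapped between the states, the low share in PSC cells went with the higher DNMT3A and DNMT3B reads there.

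The TET transcripts were divided differently between the states as well. TET1 took 36.0% of TET reads in iNSLCs (CI 34.8% to 37.2%), 68.2% in PSC cells (CI 65.4% to 70.9%) and 46.4% in the fibroblast (CI 34.3% to 58.8%). TET3 took 53.3%, 28.1% and 0 of 69 reads, and TET2 took 10.7%, 3.71% and 53.6%. The PSC value of TET2 pools unlike cells, with 2.15% in the ESCs (1.48%, 0%, 1.91% and 5.41%) and 15.6% in the iPSC. In PSC cells the TET1 share was 60.9% to 100%, and 60.9% to 75.0% without ESC cell 11, whose TET reads were 9 in all. Of the 1104 TET reads of PSC cells 610 were in ESC cell 10, and the mean of the 5 TET1 shares was 74.9%. TET3 exceeded 50% in 39 of 65 iNSLCs and in no PSC cell. The 3 methyltransferase genes together took 54.9% of the reads of methyltransferases and TETs in iNSLCs, 85.9% in PSC cells and 72.9% in the fibroblast. In single iNSLCs this last share ran from 13.5% to 82.8%, and the PSC cells had 77.2% to 97.8%.

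**Figure D3:**
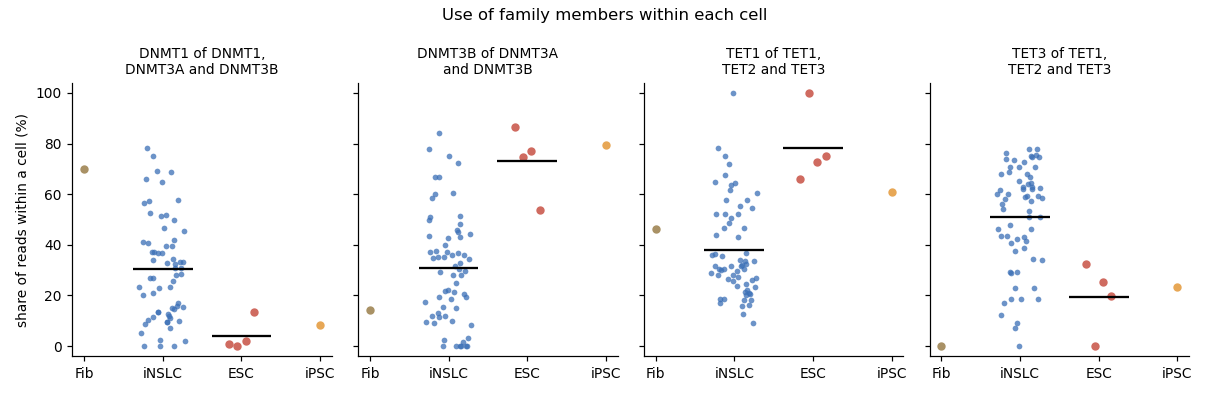
Share of the reads of a gene family that fall on the named gene (y axis, percent) in the fibroblast, 65 iNSLCs, 4 ESCs and 1 iPSC (x axis), with 1 point per cell and a line at the mean of the shares for iNSLCs and ESCs. DNMT3B takes over 50% in each PSC cell, and the iNSLCs spread from 0 to 84.1%.

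The iNSLCs were uneven in these genes, some more and some less than other genes of similar level. The coefficient of variation (CV, SD divided by mean over 65 cells) was 0.858 for DNMT1, where read counting alone would give 0.195 and the 680 genes of similar mean had a median of 0.635. Of those genes 14.0% had a higher CV, so DNMT1 was among the more variable ones. UHRF1, its partner, had a CV of 0.494, and 76.6% of genes of similar mean had a higher one. DNMT3A at 0.601, DNMT3B at 0.794, TET2 at 0.954 and TET3 at 0.612 lay near the middle, with 36.0% to 44.0% of similar genes above them. TET1 at 0.540 and TDG at 1.13 were on the even side, with 76.9% and 73.1% above them. The middle cells, from the first to the third quartile, spanned 12.6 to 54.4 normalized counts for DNMT1 and 44.9 to 86.0 for UHRF1. The CV of DNMT1 was 0.863 with every cell scaled to the same total and 0.874 after thinning, and that of UHRF1 was 0.487 and 0.428.

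**Figure D4:**
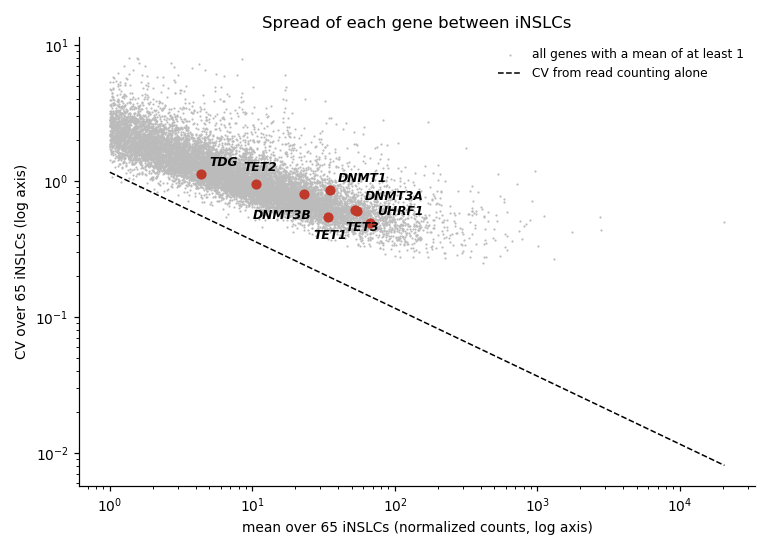
CV over 65 iNSLCs (y axis, log) against the mean in normalized counts (x axis, log), with 1 grey point per gene whose mean reaches 1, the 8 members that reach it in red and a dashed line for the CV that counting alone gives. DNMT1 at 0.858 lies in the upper part of the genes of its level and UHRF1 at 0.494 in the lower part.

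Apart from DNMT3L and TDG, the members were read in nearly all iNSLCs. Of the 65 iNSLCs, 3 had reads of all 9 genes, 36 had 8, 21 had 7, 4 had 6 and 1 had 5. The cell with 5 was cell 31, which lacked TET2 and TET3 and had 109907 reads in all. DNMT1 had no read in cells 30, 33 and 78, and DNMT3B had none in cells 33, 54, 57, 60, 72 and 85. Cell 33 lacked both with 273156 reads, close to the median depth, but it had 7574 genes with a read, the fewest of the iNSLCs. TET2 had no read in 6 iNSLCs, among them cells 34 and 55 with 567279 and 598446 reads, which are among the deeper ones. All PSC cells had reads of all 9 genes except ESC cell 11, which had 5.

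DNMT1 and UHRF1 are known to be transcribed with the cell cycle, so their spread was set beside an S phase score, the mean log2 level of 23 S phase genes such as MCM5, CDC6 and CDC45. Over the 65 iNSLCs the Pearson correlation with the score was 0.550 for DNMT1, 0.424 for UHRF1 and 0.325 for DNMT3B. It was -0.361 for TET2 and between -0.09 and 0.01 for the other 5 genes. Over the 5810 genes whose mean reached 10 the median was 0.0613 and the 95th percentile was 0.345. Of them 0.671% lay above DNMT1, 2.13% above UHRF1, 6.28% above DNMT3B and 99.4% above TET2. Among cells with numbers up to 56 (27 iNSLCs) and from 57 (38 iNSLCs) the values were 0.562 and 0.565 for DNMT1, 0.470 and 0.424 for UHRF1, and 0.346 and 0.309 for DNMT3B. That of TET2 was -0.553 and -0.200, so it was carried more by the first set. With 57 cells thinned to equal reads the 4 genes had 0.533, 0.347, 0.336 and -0.222. These cells share a library set and their depth differs, so the values describe them and no p-value is given.

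The S phase score itself was 0.875 to 4.48 in iNSLCs (median 1.99), 4.11 to 5.54 in PSC cells and 2.88 in the fibroblast. Of the 5 PSC cells 4 had a higher score than any iNSLC, and none had more DNMT1 than the highest iNSLC. With a score for 19 G2 and M phase genes DNMT1 had a correlation of 0.354 and TET2 one of -0.347. In the iNSLCs up to number 56 and from 57 these were 0.254 and 0.520 for DNMT1 and -0.372 and -0.364 for TET2. After thinning DNMT1 had 0.415 and TET2 had -0.426. The S phase and the G2 and M phase scores were themselves correlated, at 0.635.

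**Figure D5:**
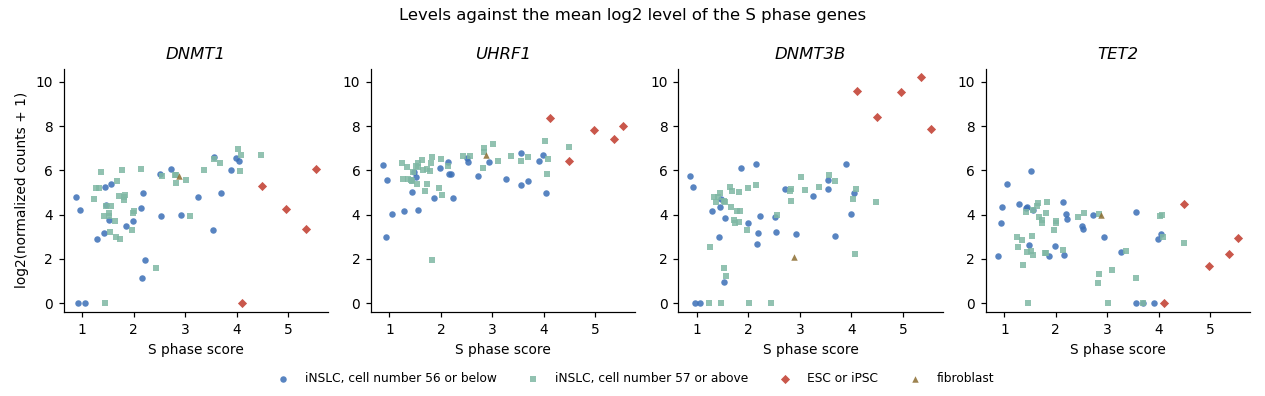
Log2 of normalized counts plus 1 (y axis) against the S phase score (x axis, mean log2 level of 23 genes) for DNMT1, UHRF1, DNMT3B and TET2, with 1 point per cell, coloured by cell number set and group. DNMT1 and UHRF1 are higher in iNSLCs with a higher score, and DNMT3B is set apart in the ESCs and the iPSC at scores of 4.11 to 5.54.

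Members were only loosely tied to each other across iNSLCs. The highest of the 36 pairwise correlations was that of DNMT1 and UHRF1 at 0.399, with 0.504 and 0.244 in the same sets of cells and 0.313 after thinning. DNMT1 and DNMT3B had 0.319. The lowest was that of UHRF1 and TET2 at -0.355 (-0.399 and -0.278 in the sets, -0.219 after thinning). After thinning the order was another, with DNMT1 and DNMT3B highest at 0.317 and UHRF1 and TET1 lowest at -0.364, a pair that had -0.05 before. DNMT3A and DNMT3B had 0.189, and TET1 and TET3 had 0.0451, values too weak to read in counts of this depth.

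The genes most like each member over the 65 iNSLCs were taken from the same 5810 genes by Pearson correlation. For DNMT1 they included SKP2 (0.628), RPUSD3 (0.586), TONSL (0.574) and SDK1 (0.573). SKP2 encodes the substrate receptor of a ubiquitin ligase that acts at entry to S phase, and TONSL encodes a protein that acts on chromatin at replication forks. For UHRF1 they were GATD3A (0.655), CD151 (0.652), DPYSL5 (0.629), BAG6 (0.620) and ZBED1 (0.598), and these fell to 0.354 to 0.445 after thinning. DNMT3A was most like E2F3 (0.538), ST6GALNAC3 (0.521), ACP6 (0.498), ZYG11B (0.495) and TMED8 (0.488), and E2F3, a transcription factor gene of the cell cycle, kept 0.531 after thinning. DNMT3B was most like CNTRL (0.491), FOXP1 (0.481), FAM136A (0.476), HNRNPA0 (0.475) and SCAF8 (0.466).

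Among the erasers, TET1 was most like GNL3 (0.464), ITFG1 (0.456), GBE1 (0.419), RBM25 (0.408) and COPG2 (0.404). GNL3 encodes the nucleolar protein nucleostemin, and its correlation was 0.665 in the cells numbered 56 or below and 0.123 in the others. TET2 was most like FAM214A (0.490), PHF21A (0.478), RTN4 (0.470), HIF1A (0.468) and GPCPD1 (0.451). TET3 was most like LMNA (0.551), which encodes the A-type lamins, SLC38A1 (0.515), CLIP3 (0.511), DEF8 (0.496) and HECTD4 (0.490). After thinning LMNA had 0.471 and the other 4 had 0.230 to 0.321, and in the cells from number 57 all 5 had 0.112 to 0.372. For TDG the genes were CACHD1 (0.476), AP3B1 (0.473), FRS2 (0.449), PSMB5 (0.448) and QSER1 (0.437). The likeness of TDG to QSER1, which encodes a protein that shields DNA from de novo methylation, was 0.745 in the first set of cells and 0.0883 in the other. Other values that changed by over 1.5 times were, in the cells from number 57, those of HNRNPA0 with DNMT3B (0.295), COPG2 with TET1 (0.223), RTN4 (0.247) and GPCPD1 (0.101) with TET2 and CACHD1 with TDG (0.314), and in the cells up to number 56 that of PSMB5 with TDG (0.287). Each is the top of a long list, and the values are a description of these cells.

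Profiles of the iNSLCs change with the cell number, so the members were compared between the 27 cells up to number 56 and the 38 cells from number 57. None of the 9 genes differed by a log2 ratio past 1 in either direction, where 7.11% of the 13603 genes with an iNSLC mean of 1 or more were higher and 7.31% were lower in the first set. DNMT3L did not reach that mean. The largest ratios were 0.55 for TET2 and 0.48 for TET1, higher in the first set, and -0.49 for UHRF1, lower in it. The sets also differed in depth, with medians of 357910 and 208746 reads, and in median normalized total, at 283371 and 318652. The sizes depend on this. The UHRF1 means were 53.8 and 75.8, and 59.7 and 74.1 with every cell scaled to the same total. Scaled means were 45.5 and 28.9 for TET1 and 14.8 and 8.82 for TET2, so the directions stayed. TET1 had a mean of 41.2 ± 23.8 (SD, n = 27 cells) and 29.3 ± 11.6 (n = 38), and the single cells of the sets overlapped, at 11.3 to 108 and 11.1 to 53.9. The ratio of PSC cells to iNSLCs was 4.70 and 4.83 for DNMT3B, 1.88 and 1.75 for DNMT3A, 1.97 and 1.48 for UHRF1 and 1.09 and 1.57 for TET1 against the first and the second set. The 5 genes that were higher in PSC cells were thus past the fold against either set.

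Genes for proteins that work with DNMT1 and UHRF1 at replication were in part higher in PSC cells. Of 7 partners compared, 4 were higher and none was lower, with a median of 1.20. They were the chromatin remodeller gene HELLS at 3.18, its partner CDCA7 at 1.20, the DNA ligase gene LIG1 at 2.18 and the sliding clamp gene PCNA at 1.96. PCNA and CDCA7 had no read in 1 PSC cell each. DPPA3, whose product can keep UHRF1 off chromatin, had 35 reads in 3 PSC cells and none in iNSLCs, at least 71.2-fold higher.

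Readers of methylated DNA did not share a direction. The median ratio of the 7 compared was 0.00. ZBTB33 (Kaiso) had a ratio of -2.69 with 3 reads in all PSC cells. ZBTB4 at -0.84 and MBD2 at 0.35 lay between.

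For the steps after TDG, 5 of 13 base excision and deamination genes were higher in PSC cells and 1 was lower, with a median of 0.35. PARP1 at 2.01, the endonuclease gene APEX1 at 1.98 and the uracil glycosylase gene UNG at 1.65 were higher, and the stress gene GADD45A was lower at -2.68.

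Partners of the TET enzymes and CpG island proteins included a gene that was read in iNSLCs alone. CXXC4, whose product binds unmethylated CpG and is known to act on TET2, averaged 25.3 normalized counts over the iNSLCs, with reads in 62 of 65 cells, and no read in any PSC cell or the fibroblast. It was at least 39.1-fold higher in iNSLCs than in PSC cells. Of the 9 genes of this list 4 were higher in PSC cells and CXXC4 was the 1 that was lower, with a median of 0.99. The others named were CXXC1 at 1.78, KDM2B at 1.49 and IDH1 at 1.23.

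The supply of methyl groups was the list with the highest median after S phase. Of its 9 genes 6 were higher in PSC cells and 1, MAT2B at -1.37, was lower, with a median of 1.51. MAT2A, which makes the methyl donor S-adenosylmethionine, had a ratio of 3.0 and ran from 33.2 to 387 normalized counts among PSC cells. SHMT1 at 2.6, MTHFD1 at 2.51 and MTR at 2.01 belong to the folate and methionine cycles. Relative to iNSLCs the fibroblast had ratios of 1.28 for MAT2A, 1.19 for MTR, 1.43 for MTHFD1 and 0.94 for SHMT1.

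Of 10 genes for histone marks tied to DNA methylation 3 were higher in PSC cells and none was lower, with a median of 0.46. They were EHMT2 at 1.5, TRIM28 at 1.43 and SUV39H1 at 1.10, and NSD1 was at 0.92. The counts of these lists stand beside the 24.4% of all genes that were higher and the 17.4% that were lower, and no list was tested. Of 19 G2 and M phase genes all were lower in the fibroblast than in the mean of iNSLCs, with a median ratio of -2.03. For some of them that mean rests on few iNSLCs. CDK1 had reads in 16 iNSLCs and NDC80 in 14, while TOP2A had reads in 57. The fibroblast score for these genes was 1.01, below the iNSLC median of 1.34 but within the iNSLC range of 0.114 to 7.42. The part of these genes in the fibroblast values above was not tested.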

How the data were processed

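The authors sequenced sorted single cells by RamDA-seq (GenNext kit, Nextera XT libraries) and deposited a table of normalized counts (a signal) with 71 cells. As tools, the submitters list Seurat 3.0.0, featureCounts 1.5.1, STAR 2.6.0c and Trimmomatic in their notes on processing, with no role. Not given in the sources used here are the genome build, annotation, use of strand and transcript lengths, so no coordinates or sequences are shown. RamDA-seq reads total RNA along transcripts, so longer transcripts collect more reads and unspliced RNA can count.

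In each cell all values above 0 (100%) lay within 0.02 reads of a whole multiple of the smallest step, and the reads of each cell were recovered from it. No count model was run, since cells of 1 culture are not replicates. No cell pair was identical. The row without a gene name (up to 0.449% of a cell) was not used. Doublets were not sought, as 1 cell was sorted per well. Means, log2 ratios (pseudocount 1), exact Clopper-Pearson and Poisson intervals (95%) and correlations were computed in Python 3.11.15 with scipy 1.17.1, numpy 2.4.6 and pandas 2.3.3, and figures were made in matplotlib 3.10.9. A fold against a group without reads uses 3 reads over that group and takes in read counting alone. Thinning drew 134328 reads per cell, which 8 iNSLCs did not reach. The steps were checked on simulated data.

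The members, the 9 gene lists, the 5 marker lists and the boundary after cell 56 were chosen with earlier results of these data known. Named genes are the members, up to 4 genes per list with the largest ratio at a mean of at least 10, and the 5 genes most correlated with each member (read in at least 50% of iNSLCs) over genes whose iNSLC mean reached 10. ESC cell 11, DPPA3, MAT2B, the marker genes named and the germline genes named were chosen after their values were seen. Values of a few listed genes are not reported here. Alternatives were a pseudocount of 10, scaling to the median total, thinning, medians over cells, other filters, the 6 iNSLCs with the fewest genes left out, and each PSC cell left out.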

Additional observations from a re-analysis of the deposited data

Results flagged for a closer look

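Each of the 9 genes was searched for an outlying cell among the 4 ESCs, and 1 gene had such a value. DNMT3L was at 31.7 normalized counts in ESC cell 14, where the other 3 ESCs had 9.72 to 10.5. About 1 in 20 groups would hold such a value by chance, and 9 were searched. The same cell had the lowest DNMT3B (235) and the highest DNMT1 (66.6) of the PSC cells. Without it the log2 ratio of DNMT3L was 2.95.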

How the results depend on the processing

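No paired analysis was possible because the groups share no cell numbers and no test was made. Of the 90 alternative ratios of PSC cells to iNSLCs all kept their direction and 1 moved by more than the SD over PSC cells: DNMT3L fell to 1.16 with a pseudocount of 10. That SD was wide where ESC cell 11 had no read, at 2.36 for DNMT1 and 2.43 for TET3 on the log2 scale. For such genes a shift could hardly exceed it. The number of members lower in PSC cells, 0 as reported, was 1 after thinning (TET2 at -1.10) and 0 to 1 with each PSC cell left out: 1 without ESC cell 10 (TET3 at -1.27), ESC cell 14 (DNMT1 at -1.04) or the iPSC (TET2 at -1.49). The number higher was 5, or 4 after thinning. With a mean of at least 10 the genes higher and lower were 1300 and 1214, against 3428 and 2445. The ratio of the fibroblast to iNSLCs moved after thinning to -2.89 for DNMT3A, -4.69 for DNMT3B, -2.24 for TET1 and -2.39 for TDG, after scaling to -2.07 for TET1, and with a pseudocount of 10 to -2.64 for TET3. The share of iNSLCs with TET3 was 100% after thinning, which leaves out cell 31. The CV of UHRF1 was 0.428 after thinning and that of TET1 was 0.457 without the 6 iNSLCs with the fewest genes. Thinned correlations with the S phase score were 0.133 for DNMT3A, -0.222 for TET2 and 0.0864 for TET3. The causes were not tested. Depth limits TDG and DNMT3L most, where 1 read can decide a cell, and 5 PSC cells and 1 fibroblast limit every ratio.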

Other observations

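Genes of the germ line are often silenced by promoter methylation in other cells, and 10 of the 12 listed have a row. None reached the minimum mean in the comparison of PSC cells with iNSLCs. All 10 had reads in PSC cells, 137 reads in 4 of the 5 cells, and ESC cell 11 had none. In the 65 iNSLCs 4 of the 10 had reads, 38 in all over 15 cells, and the fibroblast had 2 reads, both in SYCP1. TDRD1, which acts with Piwi proteins, had 42 reads in 4 PSC cells and none in iNSLCs, at least 82.8-fold higher, and STK31 had 30 in 3 PSC cells, at least 66.0-fold higher. The PSC cells thus combined the highest DNMT3B with more reads of these genes than the iNSLCs, and no relation between both was tested. The summed level of the 10 genes was 0 to 31.9 normalized counts in PSC cells and 0 to 6.75 in iNSLCs.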
